A study of Homo sapiens with 48 samples.

Results

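The genes described here are 7 markers of the classical subtype of pancreatic ductal adenocarcinoma (PDAC): AGR2, LYZ, TSPAN8, CTSE, ANXA10, PLA2G10 and ST6GALNAC1. They were taken by name from a count table of 36843 genes, and all 7 were found. They were read in 30 RNA-seq libraries, which form 10 groups of 3. All are protein-coding, and the count table places them (hg38) at chr7:16791811-16833433 (AGR2, ENSG00000106541.12), chr12:69348381-69354234 (LYZ, ENSG00000090382.7), chr12:71125085-71441898 (TSPAN8, ENSG00000127324.9), chr1:206008535-206023909 (CTSE, ENSG00000196188.12), chr4:168092537-168187736 (ANXA10, ENSG00000109511.12), chr16:14672548-14694308 (PLA2G10, ENSG00000069764.10) and chr17:76624761-76643786 (ST6GALNAC1, ENSG00000070526.15).

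PDAC tumours are commonly divided into a classical and a basal-like subtype. Classical tumours keep a gastrointestinal epithelial programme under factors such as GATA6, HNF4A and FOXA proteins, and make mucins, trefoil factors and the machinery that folds, glycosylates and secretes them. AGR2 is a protein disulfide isomerase of the endoplasmic reticulum that assists mucin folding. LYZ is secreted lysozyme, CTSE is an aspartic protease of gastric epithelium, and PLA2G10 is a secreted phospholipase A2. ST6GALNAC1 adds sialic acid to O-linked glycans and makes the sialyl-Tn antigen. TSPAN8 is a tetraspanin of the cell surface, and ANXA10 is a gastric-type annexin, a family of calcium-dependent membrane-binding proteins.

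The study asked what the zinc finger protein ZNF274 and azacitidine (AZA), an inhibitor of DNA methyltransferases, do to PDAC cells. ASPC1 and CFPAC1 cells each gave 4 RNA-seq groups: a control siRNA (siCTRL), an siRNA against ZNF274 (siZNF274), the solvent DMSO, and 5 µM AZA. Panc3.27 cells gave an empty vector group and a ZNF274 overexpression (OE) group. H3K9me3, a repressive histone mark that ZNF274 is known to help place, was profiled by CUT&RUN in other ASPC1 cells, with a stable hairpin against ZNF274 (shZNF274) or a control hairpin (shCTRL). All are established cancer cell lines in culture. The siRNAs were given transiently, whereas the hairpin cells had 1 µg/ml doxycycline for 9 days. The sources used here do not give the durations of the siRNA and AZA treatments, or whether the OE cells are 1 clone.

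Totals ran from 31415743 to 43383141 counts per library. Levels are counts per 1e+06 (CPM) after TMM scaling within a line, and each is given for the 3 libraries of a group. They are not divided by transcript length, so they compare 1 gene across groups, not genes with each other. ZNF274 mRNA was 2.76-fold higher in the Panc3.27 OE group than in the vector group (adjusted p = 4.17e-11). It was not lower in libraries labelled siZNF274: the mean was 19.4 ± 2.93 CPM against 17.6 ± 2.61 with siCTRL in ASPC1 (SD, n = 3 each; adjusted p = 0.305), and 32.8 ± 1.47 against 34.4 ± 1.12 in CFPAC1 (adjusted p = 0.423). Every siZNF274 result below is therefore a result of the libraries so labelled. The design text describes Panc3.27 as low in ZNF274, but its vector libraries held 1.65-fold more ZNF274 mRNA than the CFPAC1 DMSO libraries. Epithelial identity genes such as EPCAM and KRT8 summed to between 5249 and 15481 CPM in every library. Leukocyte genes, which matter because LYZ is also a myeloid marker, summed to 1.39 to 2.63 CPM in ASPC1 and 3.39 to 7.2 CPM in CFPAC1. They summed to 14.04 to 15.24 CPM in Panc3.27 vector and 14.92 to 17.57 CPM in Panc3.27 OE. FCGR3A was at 0 in all 30 libraries.

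The sequences just upstream of the start are shown because they differ in base content and in the motifs they hold. RefSeq windows (GRCh38.p14) were found for 5 of the 7, and LYZ and ST6GALNAC1 were not among them. Each line below gives the 250 bases before the start of a gene, 5′ to 3′ on the gene's strand, for the gene that changed in the most comparisons (AGR2) and the genes with H3K9me3 peaks near them. Capitals mark matches to 1 of 6 short motifs, searched on both strands: the TATA box TATAAA, the forkhead motif TGTTTAC, the GATA factor motif AGATAA, the HNF4 core CAAAGTC, the HNF1 motif GTTAAT and the E-box CACCTG.
AGR2 (chr7:16805000-16805249, minus strand): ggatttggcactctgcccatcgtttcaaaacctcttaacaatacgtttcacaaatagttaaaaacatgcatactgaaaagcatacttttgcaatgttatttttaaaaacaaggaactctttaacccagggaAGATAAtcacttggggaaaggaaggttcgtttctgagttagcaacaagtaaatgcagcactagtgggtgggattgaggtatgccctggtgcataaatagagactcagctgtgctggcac
TSPAN8 (chr12:71158000-71158249, minus strand): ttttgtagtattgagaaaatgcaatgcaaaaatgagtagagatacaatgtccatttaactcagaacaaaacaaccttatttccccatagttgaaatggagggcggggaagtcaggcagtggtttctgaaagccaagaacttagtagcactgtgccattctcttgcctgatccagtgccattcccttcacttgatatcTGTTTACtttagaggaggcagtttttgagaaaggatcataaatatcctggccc
ANXA10 (chr4:168092287-168092536, plus strand): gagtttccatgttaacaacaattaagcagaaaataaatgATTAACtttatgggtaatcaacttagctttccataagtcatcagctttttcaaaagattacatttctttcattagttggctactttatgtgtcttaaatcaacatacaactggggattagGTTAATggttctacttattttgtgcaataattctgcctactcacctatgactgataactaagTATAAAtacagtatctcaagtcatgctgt
CTSE (chr1:206023896-206024145, minus strand): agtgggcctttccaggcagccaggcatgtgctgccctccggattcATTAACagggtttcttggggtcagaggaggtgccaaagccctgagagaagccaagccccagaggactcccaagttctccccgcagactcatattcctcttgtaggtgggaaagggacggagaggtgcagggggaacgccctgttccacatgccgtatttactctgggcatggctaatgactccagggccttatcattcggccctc
The same windows were searched with the first 50 transcribed bases added, 300 in all. The AGR2 window held AGATAA, 119 to 114 bases before the start. The TSPAN8 window held TGTTTAC, 53 to 47 bases before the start. ANXA10 had TATAAA 29 to 24 bases before its start and GTTAAT in both orientations, and CTSE had GTTAAT in reverse. A window at another TSPAN8 start held 3 matches to GTTAAT. Among 35116 windows of 300 bases, AGATAA was found in 9.17%, TGTTTAC in 2.98%, TATAAA in 10.7% and GTTAAT in 6.23%. CACCTG, in 17.5% of windows, was found only in the PLA2G10 window among these 5 genes, and CAAAGTC, in 2.91%, was found in none. A match says that the letters are there, and nothing about a factor. The G and C content was 31.2% for ANXA10, 40.4% for AGR2, 40.8% for TSPAN8, 57.6% for CTSE and 68% for PLA2G10, against a median of 58% over all windows.

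The 3 lines expressed different genes of the set. CFPAC1 held AGR2, CTSE, ANXA10 and ST6GALNAC1 at their highest levels, ASPC1 held LYZ and TSPAN8 at theirs, and in Panc3.27 both LYZ and TSPAN8 were at or near 0 counts. These levels were put on 1 scale over all 30 libraries and compared between the DMSO and vector groups, so in Panc3.27 the line cannot be told apart from the vector. Of the 6 genes tested in that fit, all but PLA2G10, 2 were higher and 4 lower in ASPC1 DMSO than in CFPAC1 DMSO. ANXA10, among those lower, did not pass the low-count filter in ASPC1 but did in CFPAC1, so the filter favoured that direction. Of all genes tested 33.8% were higher and 40% lower, 73.8% in all, so a share of called genes this high is near the background.

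AGR2 was present in all 3 lines. On the common scale it stood at 112, 128 and 114 CPM in ASPC1 DMSO, at 482, 446 and 496 CPM in CFPAC1 DMSO, and at 88.5, 88.1 and 88.9 CPM in Panc3.27 vector. The groups did not overlap, and CFPAC1 was 4.03-fold above ASPC1 (adjusted p = 1.37e-23). Panc3.27 was only 1.33-fold below ASPC1 (adjusted p = 8.66e-07), the smallest step between lines for any of the 6 genes by log2 fold change.

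LYZ and TSPAN8 shared an order, ASPC1 above CFPAC1 above Panc3.27. LYZ reached 279, 285 and 297 CPM in ASPC1 DMSO and 71.1, 71.1 and 81.4 CPM in CFPAC1 DMSO, a 3.85-fold difference (adjusted p = 2.17e-20). All 3 Panc3.27 vector libraries had a count of 0 for LYZ. With a floor of 3 counts over the group, that is at least 10957-fold lower than in ASPC1 DMSO and at least 2947-fold lower than in CFPAC1 DMSO. TSPAN8 reached 638, 677 and 658 CPM in ASPC1 DMSO against 31.2, 31.3 and 34.3 CPM in CFPAC1 DMSO, 20.4-fold more (adjusted p = 3.23e-29). The Panc3.27 vector libraries had 4, 0 and 6 TSPAN8 counts. The genes lie 1770850 bases apart on chromosome 12. The TSPAN8 model shares 2101 bases with LGR5, which had 879 to 3730 counts in ASPC1 and 0 to 12 in CFPAC1, and since the strand setting of the counting is unknown, reads of the shared bases cannot be assigned with certainty. LYZ likewise shares 733 bases with the RNA RP11-1143G9.4, which had 1 to 46 counts in ASPC1.

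ANXA10 and ST6GALNAC1 were CFPAC1 genes. ANXA10 stood at 293, 264 and 311 CPM in CFPAC1 DMSO, and at 0.457, 0.236 and 0.197 CPM in ASPC1 DMSO, on 17, 8 and 7 counts, 955-fold lower (adjusted p = 3.28e-34). Its model overlaps the RNA RP11-310I9.2, which had 8 to 43 counts in CFPAC1. ST6GALNAC1 stood at 137, 132 and 130.4 CPM in CFPAC1 DMSO, at 4.33, 3.7 and 4.21 CPM in Panc3.27 vector, and at 1.29, 1.65 and 0.842 CPM in ASPC1 DMSO. Its 3 lines did not overlap, and ASPC1 was 106-fold below CFPAC1 (adjusted p = 1.4e-31). ANXA10 was 1.85-fold higher in Panc3.27 vector than in ASPC1 DMSO (adjusted p = 0.00741), but the call ended without the third ASPC1 DMSO library (adjusted p = 0.0581).

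CTSE and PLA2G10 were sparse. CTSE had 3.3, 3.11 and 3.01 CPM in CFPAC1 DMSO, and no more than 0.926 CPM in any library of ASPC1 DMSO or Panc3.27 vector. ASPC1 was 7.08-fold below CFPAC1 (adjusted p = 1.14e-12). ASPC1 and Panc3.27 overlapped for CTSE: their 1.57-fold difference (adjusted p = 0.0372) was lost without the first or the third library of either group, with adjusted p up to 0.23. PLA2G10 had 0 to 13 counts in every library of the series and, in the main fits, was tested in CFPAC1 alone. Against CFPAC1 DMSO, Panc3.27 vector was lower for all 6 tested genes, beside 39.5% of all genes lower and 38.2% higher (77.7% in all). Against ASPC1 DMSO it was higher for 3 and lower for 3, beside 41.9% and 35.9% (77.8% in all). LYZ and TSPAN8, lower in both comparisons, passed the low-count filter in ASPC1 and CFPAC1 but not in Panc3.27. They entered this fit through the lines in which they are high, so the filter fixed their direction in advance.

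Libraries labelled siZNF274 had less AGR2 than siCTRL libraries in both lines, and the other genes changed differently in each line. In ASPC1, AGR2, LYZ and ST6GALNAC1 fell and TSPAN8 rose slightly, 3 lower and 1 higher of 5 tested. For ST6GALNAC1 the low-count filter favoured a fall, as set out below. Of all 16186 genes tested, 24.2% were lower and 21.5% higher, 45.7% in all. With upper quartile scaling the share of called genes that were higher was 56.9%, against 47.1% with TMM scaling. In CFPAC1, AGR2 and CTSE fell while LYZ and TSPAN8 rose, 2 in each direction of 7 tested, beside 13.2% of all genes lower and 11.6% higher (24.8% in all). The median log2 fold change of the tested genes of the set was -0.75 in ASPC1 and -0.03 in CFPAC1, and that of all genes was -0.00 and -0.01. With cultures measured in bulk, fewer cells expressing a gene and less RNA per cell cannot be told apart.

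AGR2 measured 166, 168 and 149 CPM in ASPC1 siCTRL and 70.6, 78.7 and 70.1 CPM in ASPC1 siZNF274. The groups were far apart, a 2.21-fold fall (log2 fold change -1.14, SE 0.08; edgeR adjusted p = 1.05e-08). In CFPAC1 it measured 582, 577 and 540.2 CPM with siCTRL and 442, 422 and 446 CPM with siZNF274. Those groups did not overlap either, but the fall was 1.3-fold (log2 fold change -0.37, SE 0.05; adjusted p = 9.58e-05). The difference between the lines was itself past the threshold, at -0.78 on the log2 scale (adjusted p = 1.59e-06).

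LYZ went in opposite directions. In ASPC1 it fell from 163, 167 and 165 CPM to 95.4, 104 and 93.9 CPM, or 1.69-fold (adjusted p = 5.16e-07). In CFPAC1 it rose from 71.7, 65.8 and 67.2 CPM to 93.5, 78.9 and 81.7 CPM, or 1.24-fold (adjusted p = 0.0052). No library crossed between groups in either line. The test of the difference gave -1.08 on the log2 scale (adjusted p = 5.31e-08).

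TSPAN8 rose in both lines, by unequal amounts. In CFPAC1 it went from 40.4, 38.6 and 44 CPM to 74.1, 61.3 and 61.7 CPM, 1.6-fold higher (adjusted p = 9.6e-06). In ASPC1 it went from 345, 312 and 329 CPM to 386, 366 and 361 CPM, 1.13-fold higher (adjusted p = 0.0446). The ASPC1 call was lost without the second or the third siCTRL library or without any 1 siZNF274 library, with adjusted p from 0.0554 to 0.149. The lines differed by -0.52 on the log2 scale (adjusted p = 7.92e-04).

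ST6GALNAC1, the sialyl-Tn enzyme, had the steepest fall of the set in ASPC1, on few counts: 33, 31 and 37 with siCTRL against 4, 7 and 9 with siZNF274. That is 0.956, 0.799 and 1.21 CPM against 0.107, 0.223 and 0.249 CPM, 5.06-fold lower with a 95% interval of the remaining level from 0.116 to 0.338 (adjusted p = 7.62e-05). Every siZNF274 library was under the low-count filter's minimum count of 10. The gene was tested through the other ASPC1 groups, where it is higher, so the filter favoured a fall. In CFPAC1, where the gene is abundant, it measured 177, 167 and 161 CPM with siCTRL and 151, 154 and 155 CPM with siZNF274. The groups did not overlap, but the 1.1-fold difference missed the threshold (adjusted p = 0.0526). It passed with DESeq2 (adjusted p = 0.0407) and without the third siCTRL library (adjusted p = 0.0378). The lines differed by -2.21 on the log2 scale (adjusted p = 4.34e-06).

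CTSE fell 1.48-fold in CFPAC1 (adjusted p = 0.00671), from 2.74, 3.42 and 3.1 CPM to 2.15, 2 and 2.11 CPM, with no overlap. In ASPC1, on 19 to 28 counts per library, the siCTRL and siZNF274 libraries overlapped (log2 fold change 0.21, SE 0.29; adjusted p = 0.577). The difference between lines for CTSE was 0.77 (adjusted p = 0.0681), and it passed without the third ASPC1 siCTRL library (adjusted p = 0.0401) or the first CFPAC1 siCTRL library (adjusted p = 0.0476). ANXA10 overlapped between groups in CFPAC1, at 265, 243 and 228 CPM and 259, 226 and 234 CPM (adjusted p = 0.778). PLA2G10 had 2, 4 and 4 counts with siCTRL and 1, 6 and 8 with siZNF274 in CFPAC1 (adjusted p = 0.549). In the test between lines, 4 of 6 genes passed as lower in ASPC1 and none as higher, beside 9.28% and 7.37% of all genes (16.6% in all). Among the 4 is ST6GALNAC1, whose direction the low-count filter favoured.

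With AZA, 4 of the 5 tested genes fell in ASPC1 and none rose, beside 18.6% of all genes lower and 17.2% higher (35.8% in all). In CFPAC1, AGR2 and TSPAN8 rose and ANXA10 fell, 2 higher and 1 lower of 7, beside 12.2% and 13.5% (25.7% in all). The median log2 fold change of the set was -1.36 in ASPC1 and -0.06 in CFPAC1, and those of all genes were -0.00 and 0.01. With upper quartile scaling the share of all called genes that rose in CFPAC1 was 60.6%, against 47.4% with TMM scaling, and in ASPC1 it was 56.8% against 48.2%. The calls of the 7 genes did not change.

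AGR2, LYZ and TSPAN8 fell by similar factors in ASPC1. TSPAN8 fell from 607, 646 and 624 CPM in DMSO to 247, 201 and 245 CPM in AZA, 2.71-fold (adjusted p = 4.04e-10). LYZ fell from 266, 272 and 282 CPM to 110.1, 86.1 and 106 CPM, also 2.71-fold (adjusted p = 6.59e-10). AGR2 fell from 107, 122 and 108 CPM to 47.6, 38.8 and 45 CPM, 2.56-fold (adjusted p = 3.29e-09). For all 3 genes the highest AZA library was far below the lowest DMSO library. ST6GALNAC1 fell 1.84-fold on few counts, 48, 56 and 30 with DMSO and 22, 25 and 26 with AZA (adjusted p = 0.0241). That call ended without any 1 AZA library or without the first or second DMSO library, with adjusted p from 0.0565 to 0.138. CTSE overlapped between the groups, at 17, 20 and 10 counts with DMSO and 21, 19 and 16 with AZA (adjusted p = 0.582).

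In CFPAC1, TSPAN8 moved the other way under AZA, from 31.9, 32 and 34.6 CPM to 50.7, 52.9 and 47.9 CPM, a 1.54-fold rise (adjusted p = 2.22e-05). AGR2 rose 1.2-fold (adjusted p = 0.00204), from 493, 457 and 501 CPM to 581, 598 and 556 CPM. ANXA10, the annexin, fell 1.35-fold (adjusted p = 2.97e-04), from 299.6, 269.9 and 315 CPM to 226, 221 and 211 CPM. None of these groups overlapped. LYZ did, with 72.7, 72.7 and 82.3 CPM in DMSO and 75.9, 74.8 and 67.2 CPM in AZA (log2 fold change -0.06, SE 0.07; adjusted p = 0.564). ST6GALNAC1 also overlapped, at 139.9, 135 and 132 CPM and 132, 129 and 126 CPM (adjusted p = 0.328). CTSE did not overlap, at 3.38, 3.18 and 3.05 CPM against 4.21, 4.22 and 3.47 CPM, but missed the threshold (adjusted p = 0.09). PLA2G10 had 10, 11 and 7 counts in DMSO and 9, 13 and 8 in AZA (adjusted p = 0.939).

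The response to AZA differed between the lines for 4 of the 6 genes tested, all lower in ASPC1, beside 8.66% of all genes lower and 8.65% higher (17.3% in all). The largest of these differences was that of TSPAN8, -2.07 on the log2 scale (adjusted p = 2.53e-13). It was -1.62 for AGR2 (adjusted p = 4.83e-12) and -1.38 for LYZ (adjusted p = 4.51e-10). For ST6GALNAC1 it was -0.81 (adjusted p = 0.0069), and it was -0.57 (adjusted p = 0.0842) without the second ASPC1 DMSO library. CTSE differed by -0.06, with a standard error of 0.32, and ANXA10 by -0.05, with a standard error of 0.37. These intervals are wide, since both genes have few counts in ASPC1.

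**Figure D1:**
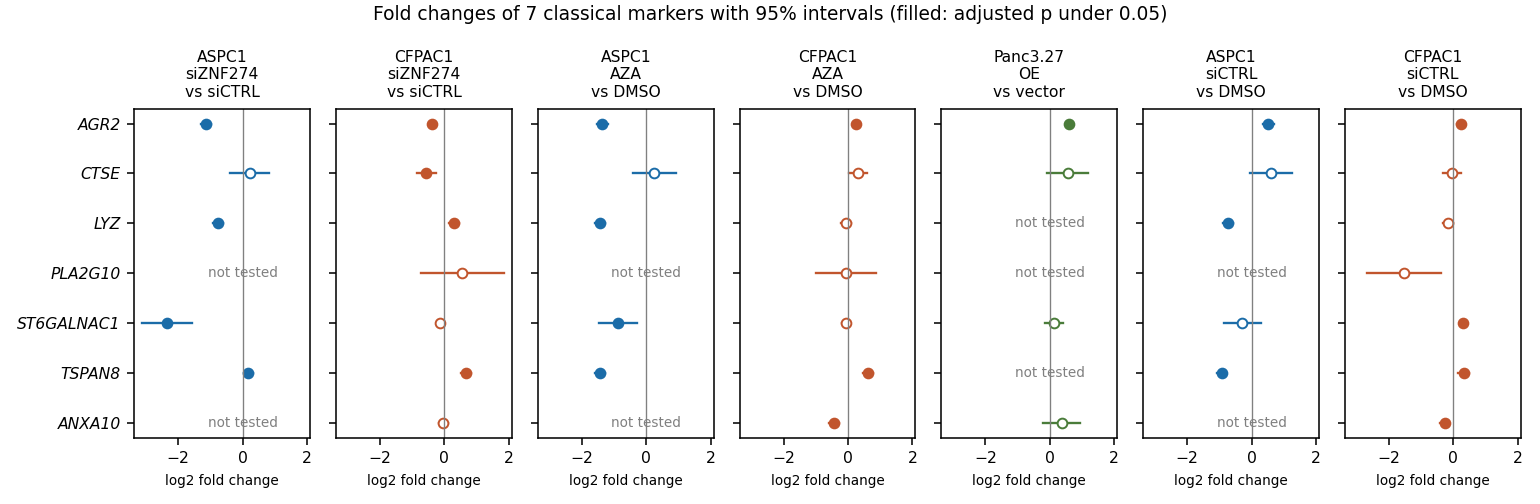
Log2 fold change of each gene in 7 comparisons, with 95% intervals from the edgeR fit of the line; filled points have an adjusted p under 0.05, and genes that did not pass the low-count filter of the line are marked as not tested. AGR2 has a filled point in all 7 panels, left of 0 in 3 of them, and in the ASPC1 AZA panel AGR2, LYZ and TSPAN8 lie close together between -1.44 and -1.36.

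ZNF274 overexpression in Panc3.27 came with more AGR2. It measured 93.4, 94.8 and 93.9 CPM with the empty vector and 143, 142 and 137 CPM with OE, a 1.5-fold rise (log2 fold change 0.58, SE 0.04; adjusted p = 1.86e-07). The vector libraries lay close together and well below every OE library. AGR2 was 1 of 4 tested genes, with 19.8% of all genes higher and 17.1% lower (36.9% in all). The median log2 fold change of the 4 was 0.47, and that of all genes 0.01. The other 3 did not pass. ST6GALNAC1 had 4.57, 3.98 and 4.45 CPM against 4.95, 5.41 and 3.91 CPM (adjusted p = 0.458). CTSE had 37, 20 and 31 counts against 46, 43 and 28 (adjusted p = 0.152). ANXA10 had 27, 20 and 24 counts against 27, 29 and 27, which did not overlap once scaled to CPM (adjusted p = 0.297). LYZ went from 0 counts in each vector library to 4, 2 and 1 with OE, too few to test, and TSPAN8 had 5, 3 and 3. Neither gene was detectable above a few counts among 34265107 or more per library.

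The control groups of the siRNA and AZA series were not alike. In ASPC1, siCTRL libraries had 1.44-fold more AGR2 than DMSO libraries (adjusted p = 6.88e-05), but 1.66-fold less LYZ (adjusted p = 1.18e-06) and 1.9-fold less TSPAN8 (adjusted p = 4.01e-08). The groups did not overlap for any of the 3 genes, as their values above show. That is 1 higher and 2 lower of 5, beside 15.9% and 14.2% of all genes (30.1% in all). There, 43.7% of called genes were higher with upper quartile scaling, against 52.7%. In CFPAC1, AGR2 (1.17-fold, adjusted p = 0.00747), ST6GALNAC1 (1.24-fold, adjusted p = 3.24e-04) and TSPAN8 (1.25-fold, adjusted p = 0.00871) were higher with siCTRL and ANXA10 was 1.2-fold lower (adjusted p = 0.015). That is 3 higher and 1 lower of 7, beside 7.3% and 8.22% of all genes (15.5% in all). The ANXA10 call ended without the third library of either group, and the AGR2 call ended in a fit of these 2 groups alone (adjusted p = 0.0517). PLA2G10 had 2, 4 and 4 counts with siCTRL, all below the DMSO libraries (adjusted p = 0.0708), and LYZ was also below DMSO in every siCTRL library of CFPAC1 without passing (adjusted p = 0.177). Transfection, solvent and any other difference between the siRNA and AZA arms cannot be told apart. These comparisons share the siCTRL and DMSO libraries with those above.

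Across the 4 ASPC1 groups, LYZ and TSPAN8 were highest in DMSO in every library. They parted between the siRNA groups: the LYZ ranges of siZNF274 and AZA overlapped, and TSPAN8 in siZNF274 was above siCTRL. Their log2 levels gave r = 0.81 over 12 ASPC1 libraries and 0.56 over 12 CFPAC1 libraries, a description in which libraries of 1 group share their treatment. In CFPAC1 the closest pair was AGR2 and CTSE (r = 0.80), which in ASPC1 gave 0.07.

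**Figure D2:**
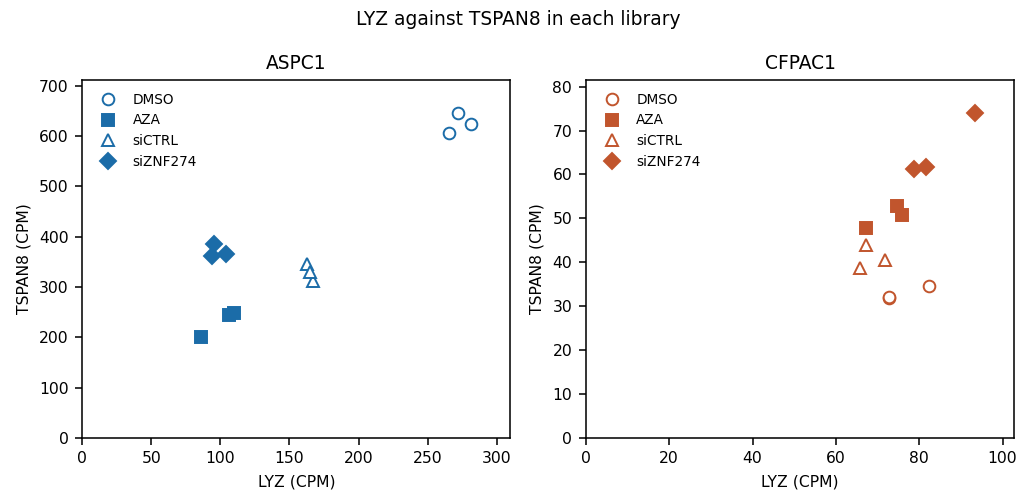
LYZ (x axis, CPM) against TSPAN8 (y axis, CPM) in the 12 libraries of ASPC1 and the 12 of CFPAC1, on linear axes that start at 0 and differ between panels; open symbols are controls. In ASPC1 the DMSO libraries stand apart at 266 to 282 CPM of LYZ, and in CFPAC1 the siZNF274 libraries have the most TSPAN8, 61.3 to 74.1 CPM.

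The counts of the lists that follow stand beside these shares over all genes. With siZNF274, 21.5% rose and 24.2% fell in ASPC1, and 11.6% and 13.2% in CFPAC1. With AZA, 17.2% rose and 18.6% fell in ASPC1, and 12.2% and 13.5% in CFPAC1. With OE, 19.8% rose and 17.1% fell. With siCTRL against DMSO, 15.9% were higher and 14.2% lower in ASPC1, and 7.3% and 8.22% in CFPAC1. A list's share near these is not a result about the list.

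Other genes of the classical subtype were read from a list of 17, such as trefoil factors, CEACAM6 and LGALS4. In ASPC1, 8 fell and 2 rose of 14 tested with AZA (median log2 fold change -0.73), with CDH17, an intestinal cadherin, 2.37-fold lower and LGALS4, a galectin, 2.3-fold lower. In CFPAC1, 6 of 9 rose with AZA and none fell (median 0.78), with the trefoil factor TFF1 4.12-fold and TFF2 1.77-fold higher. In siZNF274 libraries, 5 fell and 3 rose of 14 in ASPC1 (4 fell with upper quartile scaling), and 1 fell and 2 rose of 9 in CFPAC1. CEACAM6, a surface glycoprotein, was lower in both lines, 2.03-fold in ASPC1 and 2.08-fold in CFPAC1. In Panc3.27, 2 of 6 rose with OE, CEACAM6 2.42-fold and MYO1A 1.89-fold (1 of 6 with DESeq2). Against DMSO, siCTRL had 3 higher and 6 lower of 14 in ASPC1, and 3 higher and none lower of 9 in CFPAC1.

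The opposing basal-like list of 24 genes, squamous and migratory markers, gave 4 higher and 2 lower of 14 in ASPC1 with AZA and 6 higher and 6 lower of 22 in CFPAC1. KRT7, a ductal keratin, rose 5.31-fold in ASPC1. With siZNF274 it gave 5 higher and 2 lower of 14 in ASPC1 and 2 higher and 10 lower of 22 in CFPAC1. In Panc3.27, 12 rose and 2 fell of 22 with OE, beside 19.8% and 17.1% of all genes, among them AREG, an EGFR ligand, 1.79-fold higher. For siCTRL against DMSO it was 5 higher and 3 lower of 14, and 6 and 6 of 22.

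Of 27 gut and secretory transcription factors, 20 were tested in ASPC1 and 24 in CFPAC1. AZA lowered 10 and raised 2 in ASPC1, with HNF4G 2.84-fold, HNF4A 1.59-fold and CDX2 1.79-fold lower. The counts in CFPAC1 were 7 lower and 4 higher. In siZNF274 libraries 9 fell and 2 rose in ASPC1, and 5 fell and 6 rose in CFPAC1. GATA6, a main factor of the classical subtype, was higher in both, 1.42-fold in ASPC1 and 1.32-fold in CFPAC1. FOXA1, a FOXA protein, was 1.67-fold lower in siZNF274 libraries of CFPAC1, where GRHL2 was also lower. HNF4G was 1.65-fold lower and EHF 1.33-fold lower in siZNF274 libraries of ASPC1. OE in Panc3.27 raised 9 and lowered 3 of 19, including KLF5 (1.64-fold) and EHF (1.47-fold). XBP1, a factor of the secretory pathway, was 2.15-fold higher with siCTRL than with DMSO in ASPC1 and 1.36-fold higher in CFPAC1, where 5 rose and 6 fell and 8 rose and 2 fell of the list.

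The protein families of the 7 genes were read beside them. Among 20 disulfide isomerases and relatives of AGR2, siZNF274 libraries of ASPC1 had 7 higher and 3 lower of 16, and those of CFPAC1 had 1 higher of 17. AZA lowered 6 and raised 1 in ASPC1, where PDIA3 fell 1.39-fold and PDIA4 1.4-fold, and lowered 5 and raised 3 in CFPAC1. OE raised 4 and lowered 2 of 17. The siCTRL group was above DMSO for 8 and below for 1 in ASPC1, and above for 2 in CFPAC1.

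Of 32 other tetraspanins, TSPAN4 rose with siZNF274 in both lines (2.33-fold in ASPC1, 1.63-fold in CFPAC1), and 7 rose and 4 fell of 21 in ASPC1 and 4 rose and 3 fell of 23 in CFPAC1, not far from the 45.7% and 24.8% of all genes that changed. AZA gave 6 higher and 4 lower in ASPC1, and 7 and 3 in CFPAC1, led by UPK1B, a uroplakin, 18.9-fold higher. OE raised 9 and lowered 1 of 23. For siCTRL against DMSO, 5 were higher and 1 lower of 21 in ASPC1. In CFPAC1, 1 was higher and 8 lower of 23, beside 7.3% and 8.22% of all genes. Of 11 other annexins, ANXA13 fell 4.07-fold with AZA in ASPC1 and rose 6.07-fold with siZNF274 in CFPAC1. The annexin counts for siZNF274 were 2 higher and 5 lower in ASPC1 and 2 and 3 in CFPAC1, for AZA 2 and 5 and then 2 and 4, and for OE 2 higher and 3 lower of 10. For siCTRL against DMSO they were 2 higher and 3 lower in ASPC1, and 1 higher and 3 lower in CFPAC1.

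Of 14 other cathepsins, 12 were tested, and siZNF274 libraries had 3 higher and 4 lower in ASPC1 and 5 higher and 1 lower in CFPAC1. The lysosomal protease CTSL rose in both, 1.77-fold and 1.55-fold. AZA gave 4 higher and 3 lower, then 5 higher and none lower, and OE gave 4 higher. For siCTRL against DMSO, 4 were higher and 3 lower in ASPC1, and 3 higher and 3 lower in CFPAC1. Of 9 other secreted phospholipases, only PLA2G12A was tested in ASPC1, and it fell 1.64-fold with siZNF274 and 1.16-fold with AZA. In Panc3.27, 1 of 2 rose. Of 14 genes of O-glycan cores and sialylation, GCNT3, a mucin-type core enzyme, fell 1.8-fold with siZNF274 and 1.52-fold with AZA in ASPC1 and rose 2.39-fold with OE in Panc3.27. In CFPAC1 it went the other way, 1.27-fold higher with siZNF274 and 1.39-fold higher with AZA. The O-glycan list had 1 higher and 2 lower of 8 with siZNF274 in ASPC1 and 3 and 2 of 13 in CFPAC1. AZA gave 3 lower of 8 and then 3 higher and 3 lower of 13, and OE gave 4 higher and 2 lower of 13. For siCTRL against DMSO, 3 were higher and 1 lower of 8 in ASPC1, and 4 higher and 1 lower of 13 in CFPAC1.

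Markers of other cell types were read beside these results. Of the 8 epithelial identity genes, 6 of 7 tested were lower with AZA in ASPC1, 6 of 7 with siZNF274 in ASPC1, 7 of 8 with siZNF274 in CFPAC1, 1 of 8 with AZA in CFPAC1 and 3 of 8 with OE. For siCTRL against DMSO, 3 of 7 were lower and 1 higher in ASPC1, and 2 of 8 were lower in CFPAC1. In ASPC1 the 8 epithelial genes summed to 13795 to 15481 CPM with DMSO, 9551 to 9860 with AZA, 9923 to 11290 with siCTRL and 7228 to 7944 with siZNF274. The share of counts from the nuclear RNA MALAT1 was 0.744 to 0.911% with DMSO and 1.33 to 1.43% with AZA in ASPC1, and 0.581 to 0.997% with siCTRL and 1.08 to 1.3% with siZNF274. The part of either in the results for the 7 genes was not tested. Of 3 leukocyte genes tested, 2 rose with AZA in ASPC1, where LYZ fell, and none passed with siZNF274 there. In CFPAC1, 1 of 3 leukocyte genes tested was higher with siZNF274, where LYZ rose: CD14, 1.81-fold (edgeR adjusted p = 0.00339). The median log2 fold change of the 3 was 0.06. CD14 was also the 1 of 3 that rose with AZA, 2.63-fold. With OE, 1 of 6 leukocyte genes rose. The 8 fibroblast genes summed to 56.9 to 164 CPM, with 2 of 4 tested higher with AZA in ASPC1 and 1 of 4 with siZNF274. In CFPAC1, 2 of 5 rose with siZNF274, and 1 rose and 1 fell with AZA. With OE, 1 rose and 2 fell of 6. The 6 endothelial genes summed to 0.511 to 58.4 CPM, with 3 of 3 higher with AZA in ASPC1, from 0.511 to 0.676 CPM in DMSO to 3.85 to 4.52 CPM, and 1 of 3 higher with siZNF274. In CFPAC1, 2 of 4 endothelial genes rose with siZNF274, KDR 5.81-fold and TIE1 3.55-fold, and 1 of 4 with AZA. With OE, VWF, the 1 endothelial gene tested, was 1.83-fold higher. The 10 acinar genes never summed to more than 1.62 CPM, and CTRB1, the 1 acinar gene tested in CFPAC1, was 7.91-fold higher there with siZNF274. The part of these markers in the results for the 7 genes was not tested.

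The genes most like each of the 7 were taken over the libraries of the lines in which it was tested, after centring each line on its own mean. AGR2 was nearest to ADD3 (r = 0.94), MBOAT1 (0.93) and AHCYL2 (0.91) over 30 libraries and among 12095 genes. LYZ was nearest to TM4SF4 (0.96), SGPP2 (0.95) and NUDT12 (0.92) over 24 libraries. TSPAN8 was nearest to SCP2 (0.86), ANXA13 (0.85) and INPP5F (0.85), also over 24. The likeness is across libraries that share their treatments, with no test. ST6GALNAC1 was nearest to BCL7A (0.90), EXT1 (0.89) and SCNN1A (0.87) over 30 libraries. ANXA10 was nearest to GNA13 (0.94), LYPLA1 (0.92) and SLC35F2 (0.92) over 18. CTSE reached no more than 0.71, with TRIM16, HDLBP and TAX1BP1. For PLA2G10, TSPAN2 (0.93), FAM167A (0.92) and LRTOMT (0.90) led over 12 libraries, but its counts of 1 to 13 there make the likeness a weak description.

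H3K9me3 was read from the authors' broad peaks in ASPC1 (hg38). Peaks covered at least 1 base of 4 of the 7 genes, beside 31% of 19955 protein-coding genes: TSPAN8, ANXA10, CTSE and AGR2. The other 3 had none, although a peak of 4048 bases (chr17:76643802-76647849) began 16 bases beyond the ST6GALNAC1 model. The nearest peaks were 28179 bases from LYZ and 86415 bases from PLA2G10. In the authors' deposited table all 27 peaks over the 4 genes are called not different between shZNF274 and shCTRL, as are 63262 of the 63955 peaks.

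The TSPAN8 model in the count table (chr12:71125085-71441898) held 18 peaks that covered 55.1% of it, against 3.66% of protein-coding genes with at least 50% covered. All 18 peaks lie upstream of the RefSeq start: the RefSeq gene (chr12:71125096-71157999) held none. The nearest of the 18 was 7477 bases before the promoter window printed above. Of the 18, 14 were called in both groups, 1 in shCTRL and 3 in shZNF274. A further peak (chr12:71121925-71123416), called in both groups, lay 1680 bases beyond the other end of the RefSeq gene. The single AGR2 peak (chr7:16818829-16821500), called with shZNF274, likewise lies upstream of the RefSeq gene, and the deposited table annotates it as intronic.

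CTSE and ANXA10 had peaks at or beside their starts. Both had few RNA counts in ASPC1, as did PLA2G10, which had no peak within 86415 bases of its model. ST6GALNAC1 also had few, 30 to 56 counts per ASPC1 DMSO library. The peak that began 16 bases beyond its model was called in both groups, but no promoter window was at hand to place its start. A peak of 5449 bases (chr1:206022318-206027766), called in both groups, covered the whole CTSE promoter window, beside 5.35% of 35116 windows with any peak. ANXA10 (chr4:168092537-168187736) held 6 peaks over 27.5% of its body, 3 of them called in both groups, and a further peak of 7920 bases ended 297 bases before its promoter window. No H3K9me3 profile of CFPAC1 or Panc3.27 was used here, so the marks cannot be set beside the levels of those lines.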

How the data were processed

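RNA-seq was read in 30 libraries (10 groups of 3) of 3 PDAC cell lines. Values are raw counts per gene, as the authors deposited them. Per the submitters' processing notes, FastQC and STAR 2.7.10b were used with hg38. How reads were assigned to genes, with which annotation and strand, was not given in the sources used here. The deposited H3K9me3 peak list gives a position, the groups of the call, the authors' change call and a score, which is the same in every peak and so ranks nothing; no source used here says whether samples were pooled for calling. Gene positions are those of the deposited count table; 36717 of 36843 identifiers matched a symbol table. Promoter windows come from RefSeq (GRCh38.p14).

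Each line was fitted alone (12, 12 and 6 libraries) with edgeR 4.0.16 in R 4.3.3: filterByExpr with a minimum count of 10, TMM factors, and quasi-likelihood tests. P-values were adjusted over all tested genes by Benjamini and Hochberg's method, with a threshold of 0.05. All adjusted p-values in the text are from these edgeR fits unless DESeq2 is named. The filter passed 5 of the 7 genes in ASPC1 (not ANXA10 or PLA2G10), 7 in CFPAC1 and 4 in Panc3.27 (not LYZ, TSPAN8 or PLA2G10). Differences between ASPC1 and CFPAC1 responses were tested as interactions in 1 fit over 24 libraries, and baseline levels in 1 fit over 30. Peak overlap needed at least 1 base. The pipeline was tested on simulated data.

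The design text speaks of biological triplicates, but the labels do not name separate cultures, so p-values measure the spread between these libraries, which may be technical. Among 30 within-group pairs no files were identical. Depth of 31415743 to 43383141 counts per library limits genes with few counts. Intervals come from the edgeR fits and cover the spread between libraries; the floor of 3 counts covers counting error only.

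The 7 genes, the gene lists and the tests were chosen with earlier results of these data known. The text names all 7 genes, the 3 genes most like each by correlation, and at most 3 genes per list and comparison by smallest adjusted p. The lists were other classical, basal-like, gut and secretory transcription factors, disulfide isomerases, tetraspanins, cathepsins, annexins, secreted phospholipases, O-glycan enzymes, and epithelial, leukocyte, fibroblast, endothelial and acinar markers. The text gives their counts with no test of a list. Alternatives were RLE and upper quartile factors, no filter, DESeq2 1.42.0, a replicate block, fits of the compared groups alone, and leaving out each library in turn. CUT&RUN coverage per sample was not analysed here.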

Additional observations from a re-analysis of the deposited data

Results flagged for a closer look

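Both responses differed between ASPC1 and CFPAC1 in a direct test of the difference (edgeR interaction, 24 libraries, adjusted over 19094 genes) for AGR2, LYZ, TSPAN8 and ST6GALNAC1. Values are log2 fold change in ASPC1 minus that in CFPAC1. For siZNF274 against siCTRL the difference was -0.78 for AGR2 (adjusted p = 1.59e-06), -1.08 for LYZ (adjusted p = 5.31e-08), -0.52 for TSPAN8 (adjusted p = 7.92e-04) and -2.21 for ST6GALNAC1 (adjusted p = 4.34e-06). LYZ fell in ASPC1 and rose in CFPAC1, whereas AGR2 fell in both lines and TSPAN8 rose in both. For AZA against DMSO it was -1.62 for AGR2 (adjusted p = 4.83e-12), -1.38 for LYZ (adjusted p = 4.51e-10), -2.07 for TSPAN8 (adjusted p = 2.53e-13) and -0.81 for ST6GALNAC1 (adjusted p = 0.0069). AGR2 and TSPAN8 fell in ASPC1 and rose in CFPAC1. The ST6GALNAC1 differences rest on 4 to 56 counts per ASPC1 library. Its ASPC1 siZNF274 libraries were all under the low-count filter's minimum count of 10, so the filter favoured a lower value for siZNF274 there.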

How the results depend on the processing

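No value past the threshold changed sign under an alternative. Some values that had missed it did when 1 library was left out, and none of these passed: the AZA difference between lines ran from -0.28 to 0.42 for ANXA10 and from -0.31 to 0.20 for CTSE, and in CFPAC1 the log2 fold change ran from -0.094 to 0.00275 for LYZ and from -0.29 to 0.059 for PLA2G10 with AZA, from -0.083 to 0.029 for ANXA10 with siZNF274, and from -0.14 to 0.029 for CTSE with siCTRL against DMSO. Leaving out 1 library changed these counts of genes of the set: lower with AZA in ASPC1, 3 to 4; lower in ASPC1 in the AZA difference between lines, 3 to 4; lower with siZNF274 in CFPAC1, 2 to 3; lower in Panc3.27 vector against CFPAC1 DMSO, 6 to 7; higher with siZNF274 in ASPC1, 0 to 1; lower with siCTRL against DMSO in CFPAC1, 0 to 1; higher in ASPC1 in the siZNF274 difference between lines, 0 to 1; higher in Panc3.27 vector against ASPC1 DMSO, 1 to 3. Except for the count of 7 in Panc3.27 vector against CFPAC1 DMSO, the libraries concerned and their adjusted p-values stand beside each gene above. That count includes PLA2G10, which the main fit over 30 libraries did not test. For ANXA10 with siCTRL against DMSO the adjusted p-values were 0.0549 without the third siCTRL library and 0.0621 without the third DMSO library. A fit of the 2 groups alone called 1604 genes for siCTRL against DMSO in CFPAC1, against 2810; the cause was not tested. With at least 50% of the gene body covered, 1 of the 7 genes (TSPAN8) counts as under H3K9me3, against 4. Both counts depend on the gene models of the count table. The RefSeq genes of TSPAN8 and AGR2 held no peak, while peaks covered 28.3% of the RefSeq gene of CTSE and 27.5% of that of ANXA10. Without the low-count filter the CTSE difference between Panc3.27 and ASPC1 had an adjusted p of 0.0513.

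Pairing by replicate number was weak at most: correlations of same-numbered deviations ran from -0.167 to 0.282. In ASPC1, for siZNF274 against siCTRL, they were 0.088, 0.065 and 0.144, each above the best differently numbered value (0.053, -0.009 and -0.049). The same held for ASPC1 siCTRL against DMSO (0.16, 0.081 and 0.187 against 0.024, -0.015 and -0.088). For CFPAC1 AZA against DMSO each was below (-0.014, -0.083 and -0.119 against 0.053, 0.069 and 0.12). The other comparisons were mixed. With the replicate number as a block (replicate block), 7928 genes were called for siZNF274 in ASPC1, against 7400, and no call of the 7 genes changed. Depth limits PLA2G10 in all lines, ANXA10 and CTSE in ASPC1, and LYZ and TSPAN8 in Panc3.27: changes there were not detectable at these counts.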
